A study of Homo sapiens with 6 samples.

Results

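Aldehyde dehydrogenases are the enzymes that oxidise reactive aldehydes to the matching carboxylic acids, and 10 of their genes were followed here in A549 cells. The members were ALDH1A1, ALDH1A3, ALDH1B1, ALDH2, ALDH3A1, ALDH3A2, ALDH3B1, ALDH6A1, ALDH7A1 and ALDH9A1, found by their gene symbol in the deposited tables, 10 of the 29845 genes listed with reads. A549 is an established cell line grown from a human lung adenocarcinoma. The polyadenylated RNA of 6 libraries was sequenced, 3 from cells given the empty pIRES-hrGFP-1a plasmid (control) and 3 from cells given the same plasmid carrying FLAG-tagged human TFAM (TFAM-OE), all collected 48 h after a transient transfection with Lipofectamine, so every library also carries the effect of transfected plasmid DNA. The study asked which genes respond to extra TFAM, a protein that packages mitochondrial DNA and regulates its transcription. It also examined alternative splicing, and its discussion names ALDH3A1 and ALDH3A2 among genes with TFAM-regulated splicing. The counts per gene used here do not measure splicing.

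The family uses NAD+ or NADP+ to remove aldehydes that arise from ethanol, vitamin A, lipid peroxidation, amino acid breakdown and polyamines. ALDH1A1 and ALDH1A3 make retinoic acid from retinal in the cytosol. ALDH2 and ALDH1B1 are mitochondrial enzymes that clear acetaldehyde. ALDH3A1, ALDH3A2 and ALDH3B1 act on aromatic and fatty aldehydes, whereas ALDH6A1, ALDH7A1 and ALDH9A1 each serve a catabolic pathway. High ALDH1A1 and ALDH3A1 are well known features of lung cancer lines such as A549, in which the oxidative stress regulator NRF2 is constitutively active.

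The libraries held between 26650854 and 37321956 counted reads. The level of TFAM itself, which would check the labels, averaged 73.0 ± 2.97 CPM for control and 77.4 ± 5.58 CPM for libraries labelled TFAM-OE (SD, n = 3 each). The groups overlapped, and the log2 difference was 0.08 with an edgeR adjusted p of 0.623. CPM is the read count scaled to library size after TMM, a correction for library composition. The study probed the FLAG-tagged protein by western blot, which is not analysed here, and in the RNA values the directions below rest on the labels. Keratins of epithelial cells were abundant, with 72257 to 106266 reads of KRT7 per library. The epithelial adhesion genes EPCAM (9 to 32 reads) and CDH1 (117 to 249 reads) were low, while the junction gene CLDN1 had 4023 to 5557 reads. Nothing in the labels says whether the 3 libraries of a group came from separate cultures, and the study calls them biological replicates, so the p-values measure the spread between these libraries. Fewer expressing cells and less RNA per cell cannot be told apart in such bulk RNA.

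Compared per transcript length, as the FPKM values deposited by the authors (fragments per kilobase, scaled to library size), ALDH1A1 had the highest level of the 10 genes. Its FPKM values were 669.83, 624.89 and 675.55 in the control libraries and 705.52, 796.89 and 977.95 in the TFAM-OE libraries, and its mean ranked 73 among the 29656 genes of the FPKM table. ALDH3A1 followed with 259.24, 306.66 and 309.71 FPKM in control and 422.56, 433.32 and 446.54 FPKM in TFAM-OE, at rank 152. These 2 genes together made up between 85.9% and 86.9% of the summed FPKM of the 10 genes in control and between 88.0% and 89.2% in TFAM-OE. The other members spanned a wide range. Mean FPKM over the 6 libraries ran from 56.3 for ALDH3B1 through 38.4 for ALDH3A2, 26.5 for ALDH1B1, 17.6 for ALDH9A1 and 7.87 for ALDH7A1 to 4.59 for ALDH2, 4.31 for ALDH1A3 and 0.653 for ALDH6A1. In both groups, the libraries of each gene in this order lay above all those of the next gene, with the exception of ALDH2 and ALDH1A3, whose FPKM values overlapped.

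**Figure D1:**
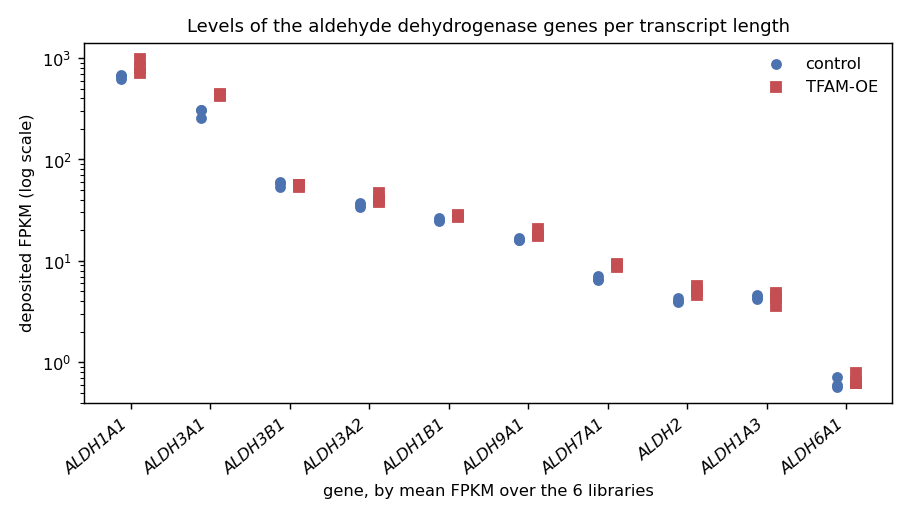
Deposited FPKM (log axis) of the 10 aldehyde dehydrogenase genes, ordered by their mean over the 6 libraries, with a circle for each control library and a square for each TFAM-OE library. ALDH1A1 and ALDH3A1 stand well above the rest, and ALDH6A1 is below 1 FPKM in every library.

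Two-sided tests between the groups were made with edgeR's quasi-likelihood test on the counts of the 16555 genes with enough reads, adjusted by Benjamini-Hochberg over all of them. All 10 members had enough reads to be tested. ALDH3A1 and ALDH7A1 were higher in TFAM-OE at an adjusted p below 0.05, 2 of 10, and 0 of 10 were lower. Of all genes tested, 3.48% were higher and 4.81% lower past the same threshold. At an unadjusted p below 0.05, 6 members were higher and 0 lower. All genes were not counted at this threshold, so these 2 counts cannot be set against a share of all genes. DESeq2 called 4 members higher and 0 lower, against 932 and 1105 of all 16555 genes. With limma-voom, 2 members were higher and 0 lower, against 565 and 775 of all genes. None of the 10 reached the 2-fold change that the study required in addition, which 2.51% of all genes did in either direction. In 7 of the 10 genes, every TFAM-OE library lay above every control library in scaled CPM, which was so for 15.8% of all genes tested, and in 0 of 10 did they lie below, against another 15.8%. The deposited FPKM gave the same 7 genes, against 15.8% of all genes. The median log2 fold change was 0.23 for the 10 members and -0.01 for all genes tested. These sizes were small, and which members passed depended on single libraries. Without control replicate 1, control replicate 2 or TFAM-OE replicate 2, 0 members were called, against 90, 66 and 89 higher among all genes. Without TFAM-OE replicate 1, 4 members were called, against 753 higher among all genes.

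**Figure D2:**
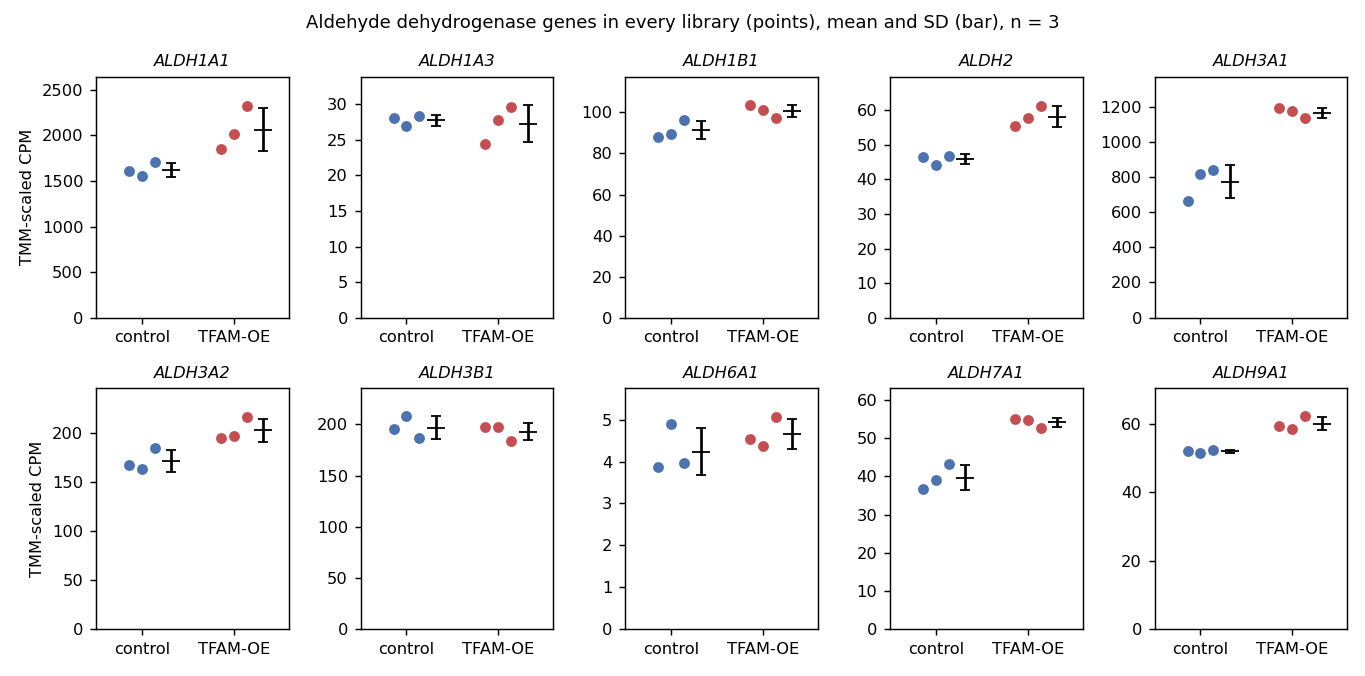
TMM-scaled CPM of each gene in every library, control in blue and TFAM-OE in red, with the mean and SD of each group of 3 as a black bar. The TFAM-OE points lie wholly above the control points in 7 panels and overlap them for ALDH1A3, ALDH3B1 and ALDH6A1.

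**Figure D3:**
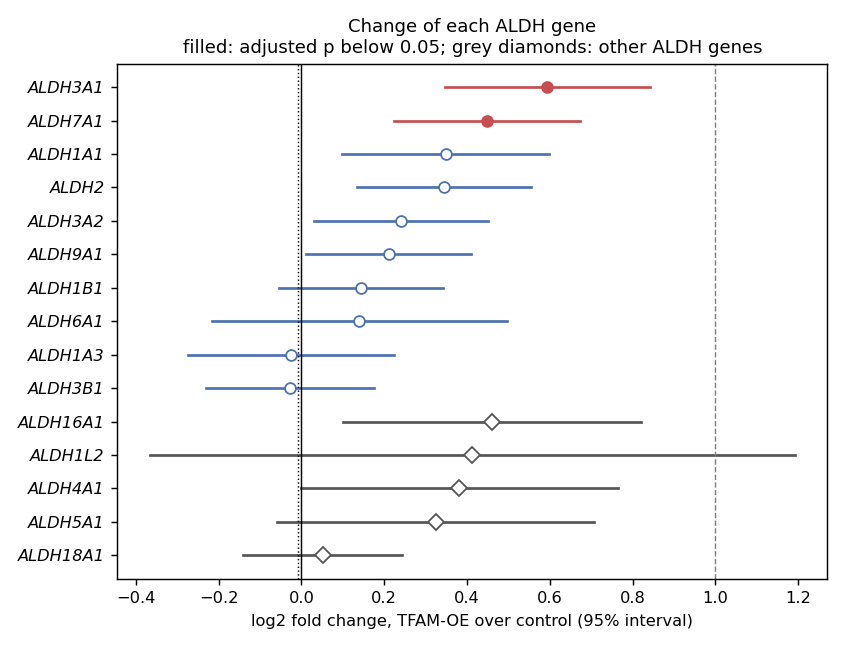
Log2 fold change of TFAM-OE over control for the 10 members (circles) and 5 other ALDH genes (grey diamonds), each with its 95% interval from edgeR, where a filled symbol marks an adjusted p below 0.05, the dotted line the median of all genes tested and the dashed line a 2-fold rise. ALDH3A1, at 0.59, and ALDH7A1, at 0.45, are the filled points.

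ALDH3A1, on the minus strand of chromosome 17 of GRCh38 (19737984 to 19748943), encodes a cytosolic enzyme of aromatic and lipid peroxidation aldehydes and had the largest change of the 10. It stood at 665, 816 and 838 CPM in the control libraries and 1190, 1175 and 1134 CPM in the TFAM-OE libraries. Control replicate 1 was the lowest, and the gap between the groups was wider than the spread within either. The means were 773 ± 94.0 CPM and 1166 ± 29.2 CPM (SD, n = 3 each), 1.51-fold with 95% bounds of 1.27 and 1.79 (0.59 on the log2 scale, standard error 0.11, edgeR adjusted p = 0.013). Of all genes tested, 4.16% had a log2 fold change at least as high. Over 16 alternative fits the log2 fold change of ALDH3A1 stayed between 0.50 and 0.66. Its adjusted p ranged from 2.0e-05, in the edgeR fit over every gene with a read, to 0.081. It passed the threshold neither without control replicate 1 (0.060) nor without control replicate 2 (0.064) nor without TFAM-OE replicate 2 (0.080) in edgeR. A long noncoding RNA on the opposite strand (ENSG00000264785) shares 98 exon bases with ALDH3A1 and had 175 to 365 reads per library.

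ALDH3A2 lies 52.2 kb from ALDH3A1 on the same chromosome, on the plus strand (19648136 to 19685760), and encodes the fatty aldehyde dehydrogenase of the endoplasmic reticulum. Its values were 168, 164 and 185 CPM in control and 196, 197 and 217 CPM in TFAM-OE. The groups did not overlap, but the fold change of 1.18 (95% interval 1.02 to 1.37) did not pass the test (adjusted p = 0.145 by edgeR). ALDH3B1, on chromosome 11 (68008578 to 68029282), encodes a membrane-bound enzyme of medium and long chain aldehydes. It had 195, 209 and 186 CPM in control and 198, 198 and 184 CPM in TFAM-OE. These values overlapped fully, at 0.981-fold with 95% bounds of 0.853 and 1.13 (edgeR adjusted p = 0.884).

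Of the genes for retinoic acid synthesis, ALDH1A1 (chromosome 9, 72900671 to 73080442, minus strand) had 1606, 1553 and 1707 CPM in control and 1856, 2018 and 2319 CPM in TFAM-OE. TFAM-OE replicate 3 was the highest library and the groups did not overlap. The fold change of 1.27 (95% interval 1.07 to 1.51) did not pass the test after adjustment (0.35 on the log2 scale, standard error 0.11, edgeR adjusted p = 0.084). It did pass in DESeq2 (adjusted p = 0.041), over every gene with a read (0.035) and without TFAM-OE replicate 1 (0.028, both by edgeR), in a range from 0.028 to 0.279 over the alternatives. The fit over every gene with a read takes its spread also from genes with almost no counts, which limits that call. ALDH1A3 (chromosome 15, 100877714 to 100916626, plus strand) makes the same product from another gene. It had 28.1, 26.9 and 28.3 CPM in control and 24.4, 27.8 and 29.6 CPM in TFAM-OE. These overlapped, at 0.983-fold with 95% bounds of 0.827 and 1.17 (edgeR adjusted p = 0.913). An antisense RNA, ALDH1A3-AS1, shares 1715 exon bases with ALDH1A3 and had 177 to 267 reads per library, and as the use of strand in the counting is not given in the sources used here, reads in the shared bases cannot be assigned with certainty.

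ALDH2 and ALDH1B1 form the mitochondrial pair. ALDH2, on chromosome 12 (111766887 to 111817532, plus strand), is the main enzyme of acetaldehyde removal. It had 46.6, 44.2 and 46.7 CPM in control and 55.4, 57.8 and 61.3 CPM in TFAM-OE. All TFAM-OE libraries were above all control libraries, and the fold change of 1.27 (95% interval 1.10 to 1.47) lay just outside the threshold (0.34 on the log2 scale, standard error 0.09, edgeR adjusted p = 0.052). The alternatives gave adjusted p-values from 0.023, in DESeq2, to 0.208, and ALDH2 was called without TFAM-OE replicate 1 (0.039) or TFAM-OE replicate 3 (0.041) in edgeR. A second protein-coding gene annotated on the same strand (ENSG00000257767) shares 680 exon bases with it and had 724 to 1298 reads per library, so part of the ALDH2 reads could have been counted there. ALDH1B1, a gene on chromosome 9 (38392702 to 38398661) whose product also oxidises acetaldehyde, had 88.2, 89.3 and 96.2 CPM in control and 103, 101 and 97.5 CPM in TFAM-OE. The groups came close without overlapping, with a fold change of 1.10 (95% interval 0.962 to 1.27, adjusted p = 0.345 by edgeR).

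ALDH7A1 (chromosome 5, 126531200 to 126595362, minus strand) encodes antiquitin, which acts in lysine breakdown and choline oxidation. It had 36.7, 39.0 and 43.3 CPM in control and 55.03, 54.7 and 52.8 CPM in TFAM-OE. The lowest TFAM-OE library was well above the highest control library. The gene rose from 39.7 ± 3.32 to 54.2 ± 1.19 CPM (SD, n = 3 each), 1.37-fold with 95% bounds of 1.17 and 1.596 (0.45 on the log2 scale, standard error 0.10, edgeR adjusted p = 0.026), and 8.08% of all genes had a change at least as high. Over the alternatives the log2 fold change of ALDH7A1 was 0.38 to 0.52 with an adjusted p from 0.0034 to 0.142, and the call was lost without control replicate 1 (0.117), control replicate 2 (0.124) or TFAM-OE replicate 2 (0.142) in edgeR.

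ALDH9A1 (chromosome 1, 165662216 to 165698562) acts in carnitine synthesis and on polyamine aldehydes. It had 52.1, 51.4 and 52.4 CPM in control and 59.5, 58.6 and 62.3 CPM in TFAM-OE. The control libraries were very close to each other and all were below the TFAM-OE libraries, with a fold change of 1.16 (95% interval 1.01 to 1.33) that did not pass the test (adjusted p = 0.174 by edgeR). ALDH6A1 (chromosome 14, 74056847 to 74084492), the mitochondrial enzyme of valine and thymine breakdown, was the lowest of the 10. It had 130 to 159 reads per library, or 3.87, 4.89 and 3.96 CPM in control and 4.55, 4.37 and 5.07 CPM in TFAM-OE. These overlapped, and the 95% interval of the fold change, 0.861 to 1.41, was the widest of the 10 members (edgeR adjusted p = 0.627). BBOF1, on the opposite strand, shares 670 exon bases with it and had 63 to 112 reads per library.

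**Figure D4:**
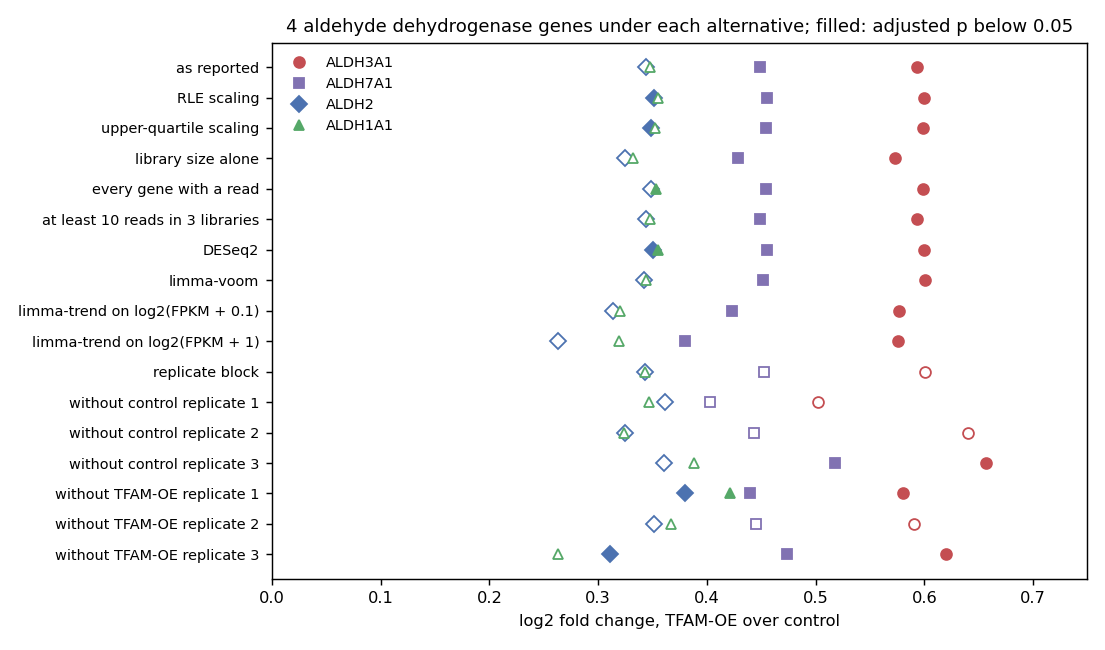
Log2 fold change of TFAM-OE over control for ALDH3A1 (circles), ALDH7A1 (squares), ALDH2 (diamonds) and ALDH1A1 (triangles), as reported and under 16 alternative fits, where filled symbols have an adjusted p below 0.05. The values of each gene stay within a narrow band, from 0.50 to 0.66 for ALDH3A1 and from 0.38 to 0.52 for ALDH7A1, while the calls come and go.

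The DNA before the start of the genes was read from RefSeq promoters on GRCh38.p14, which matched 8 of the 10 members, and ALDH2 and ALDH3A1 had no entry. Of the 250 bases before each start, the 30 around the CCAAT box are shown for ALDH7A1, the called gene with an entry, and for ALDH1A1, the most abundant member, with the CCAAT box in capitals. The ALDH7A1 site is chr5:126595265-126595294 and the ALDH1A1 site chr9:72953110-72953139, both on the minus strand and written 5′ to 3′. GENCODE annotates earlier starts for both genes, so that the site of ALDH7A1, with 143 bases of its 250-base window, lies in an annotated exon, and the window of ALDH1A1 lies within the gene with 3 bases in an exon.
ALDH7A1: ggtcgggtctgcCCAATgggttctcccggg
ALDH1A1: gagtttgttcatCCAATcgtatccgagtat

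Both strands of the 250 bases were searched in the 10 promoter entries of the 8 matched members, since ALDH3A2 and ALDH3B1 have 2 starts each, and in 35116 promoters in all. The CCAAT box (CCAAT) was in 6 of the 10 entries and in 32% of all promoters. The core of the antioxidant response element, the site type bound by NRF2 (TGACNNNGC), was in 0 of 10 and in 10.9% of all. The core of the dioxin response element, the site type bound by AHR (GCGTG), was in 2 of 10, those of ALDH1A3 and the second ALDH3A2 start, and in 32.2% of all. The TATA box (TATAAA) was in 0 of 10 and in 10.7% of all. These motifs do not overlap each other in the sequences shown, and the counts describe letters in this window only.

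The family has other genes, and 8 of 9 further ALDH genes were in the tables. ALDH1A2, ALDH1L1 and ALDH8A1 had at most 20 reads in a library and were not tested. The remaining 5 all had positive log2 fold changes with a median of 0.38, and 0 passed the test in edgeR, 1 at an unadjusted p below 0.05, 0 in DESeq2 and 0 in limma-voom. ALDH16A1 had the highest of these, 0.46 (standard error 0.16, edgeR adjusted p = 0.109), with 41.1 ± 8.40 CPM in control and 56.5 ± 7.72 CPM in TFAM-OE (SD, n = 3 each). ALDH18A1, which starts proline synthesis, was at 104 ± 1.05 and 108 ± 3.84 CPM (SD, n = 3 each). ALDH1L2, the mitochondrial folate enzyme, spread from 3.20 to 9.43 CPM among the TFAM-OE libraries and overlapped the control libraries.

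Genes known to control or accompany the members were read from the same fit. ALDH3A1 is a classic target of the aryl hydrocarbon receptor (AHR), a ligand-activated transcription factor. Of 9 genes of AHR and its targets, 7 were tested, and 4 were lower and 0 higher in TFAM-OE in edgeR, with 5 lower and 0 higher at an unadjusted p below 0.05 and the same 4 and 0 counts in DESeq2 and limma-voom. The median log2 fold change of this list was -0.61. CYP1A1, the enzyme most used as a readout of the receptor, fell from 4.04 ± 1.57 to 0.997 ± 0.119 CPM (SD, n = 3 each, log2 fold change -2.01, adjusted p = 0.0053 by edgeR). CYP1B1 fell from 224 ± 56.3 to 88.1 ± 2.56 CPM (SD, n = 3 each, log2 fold change -1.35, adjusted p = 0.0013 by edgeR). TIPARP, a feedback inhibitor of the receptor, fell by 0.92 on the log2 scale and AHR itself by 0.61, where edgeR gave adjusted p-values of 0.0032 and 0.034. The calls of CYP1A1, CYP1B1 and TIPARP held in all 16 alternatives, and that of AHR was lost in 7, among them those without control replicate 1, control replicate 2 or TFAM-OE replicate 2. NQO1 and ARNT, the 2 genes of the list with positive log2 fold changes, stood at 0.09 and 0.22 (edgeR adjusted p = 0.660 and 0.383). NQO1 is also counted in the NRF2 list below. ALDH3A1 was higher in the libraries in which CYP1A1, CYP1B1 and TIPARP were lower, and a part of AHR in its change was not tested.

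NRF2, encoded by NFE2L2, drives antioxidant enzymes and is also linked to ALDH3A1. All 26 genes of its list were tested, and 2 were higher, 4 lower and 20 not past the test, with a median log2 fold change of -0.02. At an unadjusted p below 0.05, 3 were higher and 7 lower. GPX2, a glutathione peroxidase, rose from 11.7 ± 1.40 to 22.4 ± 7.32 CPM (SD, n = 3 each), by 0.94 on the log2 scale (edgeR adjusted p = 0.026). HMOX1, the heme-degrading enzyme, fell from 753 ± 117 to 314 ± 57.5 CPM (SD, n = 3 each, log2 fold change -1.26, adjusted p = 0.0019 by edgeR), while OSGIN1, SRXN1 and NFE2L2 fell by 0.67, 0.60 and 0.56 on the log2 scale (edgeR adjusted p = 0.014, 0.011 and 0.021). The NRF2 inhibitor KEAP1 was at 135 ± 6.89 and 138 ± 9.96 CPM (SD, n = 3 each). The list thus moved in both directions, and its link to the rise of ALDH3A1 was not tested. Of its 6 calls, that of HMOX1 held in all 16 alternatives, and the lower calls came to 1 without control replicate 1, without control replicate 2 or without TFAM-OE replicate 2 and to 7 without TFAM-OE replicate 3, with 0 higher calls without any 1 of those first 3 libraries.

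Retinoic acid made by ALDH1A1 acts through nuclear receptors. Of 24 genes of retinoid metabolism and signalling, 21 were tested, and 1 was higher, 3 lower and 17 not past the test, with a median log2 fold change of 0.08. At an unadjusted p below 0.05, 4 were higher and 4 lower. STRA6, which carries vitamin A into cells, rose from 35.3 ± 1.26 to 49.5 ± 4.21 CPM (SD, n = 3 each, log2 fold change 0.49, adjusted p = 0.022 by edgeR). RARRES3, DHRS9 and TGM2 fell by 1.47, 1.24 and 0.52 on the log2 scale (edgeR adjusted p = 0.0033, 0.0016 and 0.014), TGM2 no longer called without the 3 libraries named next. RARRES3 is induced by retinoic acid and also by interferon, DHRS9 oxidises retinol and other alcohols, and TGM2 is a crosslinking enzyme with inducers besides retinoic acid. The receptor RARA was at 36.6 ± 0.907 and 36.0 ± 0.967 CPM (SD, n = 3 each). CYP26A1, RARB and CYP26B1 had log2 fold changes of 0.77, 0.39 and 0.31 (edgeR adjusted p = 0.177, 0.135 and 0.139). RARRES1 stood at -0.48 (edgeR adjusted p = 0.159), and all of these passed only the unadjusted threshold. Without control replicate 1, control replicate 2 or TFAM-OE replicate 2, the list had 0 higher calls, since STRA6 was then not past the threshold.

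The pathways around ALDH6A1, ALDH7A1, ALDH9A1 and ALDH3A2 held no called gene in edgeR. For valine and thymine breakdown around ALDH6A1, 12 of 15 genes were tested and 0 passed, with 1 at an unadjusted p below 0.05, 0 in DESeq2 and 0 in limma-voom, and the median log2 fold change was 0.19. For lysine breakdown and choline oxidation around ALDH7A1, 4 of 9 were tested and 0 passed, with 3 at an unadjusted p below 0.05, 2 in DESeq2 and 0 in limma-voom, and the median was 0.48. CHDH, which makes the betaine aldehyde that ALDH7A1 oxidises, was at 6.53 ± 1.07 and 9.94 ± 1.41 CPM (SD, n = 3 each) with an adjusted p of 0.054 by edgeR, and was named after its values were seen. For carnitine synthesis and polyamine oxidation around ALDH9A1, 6 of 8 were tested and 0 passed, with 1 at an unadjusted p below 0.05, 1 in DESeq2 and 0 in limma-voom, and the median was 0.10. For sources of fatty aldehydes around ALDH3A2, 7 of 8 were tested and 0 passed, 0 also at an unadjusted p below 0.05, in DESeq2 and in limma-voom, and the median was -0.12. Of 8 alcohol dehydrogenases, which make aldehydes from alcohols, 1 was tested, ADH5, at 120 ± 11.2 and 134 ± 13.7 CPM (SD, n = 3 each) with an adjusted p of 0.400 by edgeR.

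**Figure D5:**
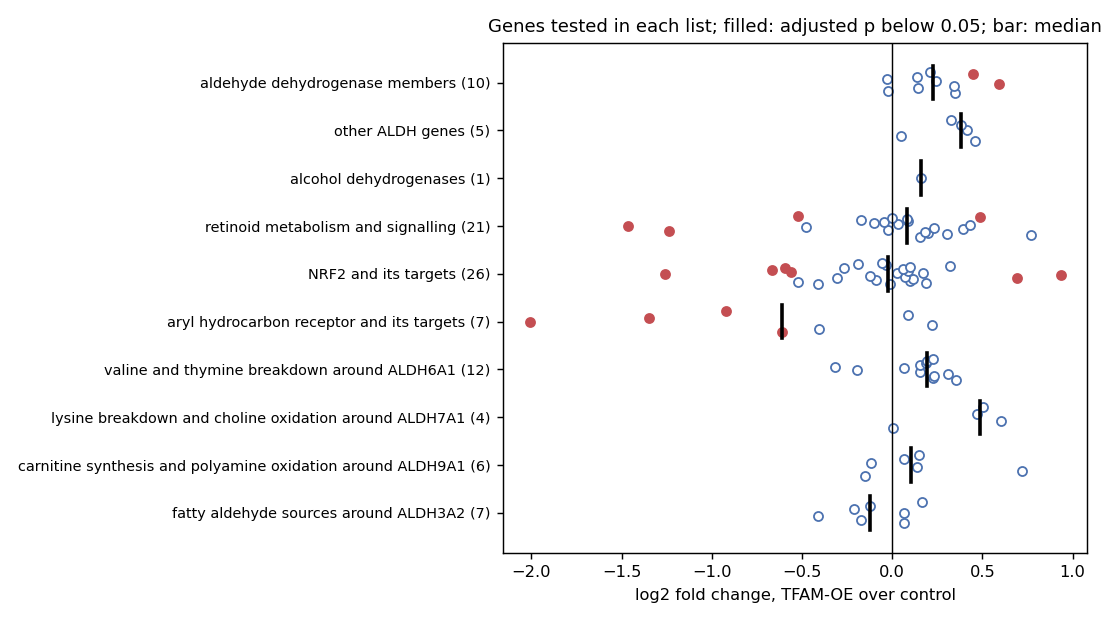
Log2 fold change of TFAM-OE over control for each gene tested in the member list and 9 lists around it (number tested in brackets), with filled points for an adjusted p below 0.05 in edgeR and a black bar at each median. The aryl hydrocarbon receptor list has its median at -0.61, against 0.23 for the members.

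Most markers of other cell types had few reads, apart from CD68 and COL1A1, the only ones tested. Of 5 immune markers, PTPRC had 1 read in all 6 libraries together. CD68, a lysosomal protein typical of macrophages, fell from 3.25 ± 0.357 to 1.39 ± 0.412 CPM (SD, n = 3 each, adjusted p = 0.015 by edgeR, and 0.062 or 0.083 without control replicate 1 or 2, in a range from 0.0085 over the libraries left out). COL1A1, a collagen of fibroblasts, was at 4.47 ± 0.233 and 3.47 ± 1.15 CPM (SD, n = 3 each, adjusted p = 0.321 by edgeR), and ALDH6A1, the lowest member, was at 4.24 ± 0.567 CPM in control. The summed immune markers ran from 3.04 to 3.70 CPM in control and from 1.07 to 1.82 CPM in TFAM-OE. Most of these reads were of CD68, with 101 of 102 in control 1 and 28 of 32 in TFAM-OE 3. The summed fibroblast markers ran from 5.05 to 5.34 and from 2.98 to 4.93 CPM, mostly COL1A1 (143 of 172 reads in control 1). These 2 sums are thus not separate from the values of CD68 and COL1A1. The summed endothelial markers ran from 0.164 to 0.506 and from 0.157 to 0.333 CPM. The part of other cell types in the values of the aldehyde dehydrogenase genes was not tested.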

How the data were processed

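The authors trimmed the reads with the FASTX-Toolkit, aligned them to GRCh38 with TopHat2 and kept uniquely mapped reads. Which program counted the reads, over which gene models and whether by strand, is not given in the sources used here. They deposited raw read counts and FPKM values per gene for each library, unpooled. The 10 members and the gene lists were chosen with earlier results of these data known.

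Genes kept by filterByExpr were scaled by TMM and tested by quasi-likelihood in edgeR (4.0.16, R 4.3.3), with group as the only term, Benjamini-Hochberg adjustment and a threshold of 0.05. Standard errors and 95% intervals come from this fit, and CPM use the TMM-scaled library sizes. Reads have no molecular identifiers, so depth (26650854 to 37321956 reads per library) limits only the counting error. Named were the members, the other ALDH genes, TFAM, NFE2L2, KEAP1, AHR and RARA, up to 4 called genes of largest change per list, and the gene nearest to each called member. SRXN1, CHDH, NQO1, ARNT, CYP26A1, CYP26B1, RARB, RARRES1, ALDH1A3-AS1 and the cell type markers were added after their values were seen. One gene that the rule would name is not reported here. Alternatives were RLE, upper-quartile or no scaling, other filters, DESeq2 (1.42.0), limma-voom and limma-trend on log2(FPKM + 0.1) or log2(FPKM + 1) (limma 3.58.1), replicate numbers as a block, and each library left out. Applying them to the other gene lists was chosen after seeing the data. The alternative over every gene with a read takes its spread also from genes with almost no counts, which is why filterByExpr was used. Coordinates are from GENCODE on GRCh38, and figures were drawn with matplotlib (3.10.9).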

Additional observations from a re-analysis of the deposited data

How the results depend on the processing

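Genes called higher and lower between the groups numbered 576 and 796, and became 1034 and 1485 over every gene with a read, 932 higher in DESeq2, 74 and 342 with the 2-fold rule, and between 66 and 1428 higher and 240 and 1786 lower with each library left out. Of the 10 aldehyde dehydrogenase genes, 2 were called higher, against 4 in DESeq2, 0 with the 2-fold rule and 0 to 4 with a library left out, and 0 were called lower throughout. Leaving out control replicate 1, control replicate 2 or TFAM-OE replicate 2 gave the 3 lowest counts of all genes among the fits that leave out a library, and 0 members called, and the cause was not tested. ALDH1A3 ran from -0.081 to 0.0498 and ALDH3B1 from -0.063 to 0.0234 on the log2 scale with a library left out, so their sign is not set. ALDH3A1 and ALDH7A1 kept their direction in all 16 alternatives and lost the call in 4 each, while ALDH1A1 gained it in 3 and ALDH2 in 5. The log2 fold change of TFAM stayed between 0.04 and 0.14 and was not called in any. The largest shift of the median of all genes was to -0.04, in limma-trend on log2(FPKM + 0.1). Among the changes of scaling alone it was to -0.03, with library size alone.

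The labels do not say whether the replicate numbers pair the libraries. The deviations of same-numbered libraries from their group means correlated at -0.303, 0.036 and -0.358. Those of control 3 with TFAM-OE 1 and of control 1 with TFAM-OE 3 correlated at 0.338 and 0.337. Deviations within a group of 3 are bound to each other, so these values cannot decide whether the libraries are paired. With the replicate block, 74 genes were higher and 285 lower, and 0 members were called. In the lists, the replicate block left 0 higher retinoid genes and 1 higher and 2 lower NRF2 genes. On log2(FPKM + 1) these were 0 higher retinoid genes and 1 higher NRF2 gene. With each library left out, higher retinoid genes ran from 0 to 2, higher NRF2 genes from 0 to 3 and lower NRF2 genes from 1 to 7.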

Other observations

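The gene whose 6 centred log2 CPM values lay nearest to those of ALDH3A1 was CRIP2, a LIM domain protein, at a root mean square distance of 0.01 on the log2 scale and with a log2 fold change of 0.61. For ALDH7A1 it was CDCA8, a chromosomal passenger protein, at a distance of 0.02 and with a log2 fold change of 0.45. Both were picked as the nearest of all genes tested, so the small distances and like fold changes follow from the choice. A shared control was not tested.

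A long noncoding RNA on the strand opposite ALDH3A1 (ENSG00000264785) shares 98 exon bases with it. Its control reads were 175, 181 and 269 and its TFAM-OE reads 311, 365 and 281, unscaled, with every TFAM-OE value above every control value. The values 269 and 281 lie close together and the libraries differ in depth, so this order is not read as a change. In scaled CPM, 15.8% of all genes tested had every TFAM-OE library above every control library. Reads of this RNA and of ALDH3A1 cannot be told apart in those shared bases unless the counting used strand, for which no statement was found.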
